A study of Phaseolus vulgaris with 12 samples.

Results

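The common bean (Phaseolus vulgaris) leaf transcriptome examined here holds 2 loci annotated as GIGANTEA (GI), Phvul.004G088300 and Phvul.007G083500. They were taken from the gene table by these gene names and are 2 of its 22542 loci. No other locus in the table has a description with the word gigantea or carries the same KEGG orthology entry. The gene names place them on chromosomes 4 and 7. Within the table, Phvul.004G088300 has 6 transcripts, of which 2 are annotated and 4 were assembled by the authors. Phvul.007G083500 has 11 transcripts, of which 1 is annotated and 10 were assembled. Both loci have the same 17 GO terms. Their sequences and coordinates were not analysed here.

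GIGANTEA is a large plant protein of the circadian clock. In Arabidopsis its transcript peaks late in the day, and dawn-expressed MYB-like clock factors such as LHY repress it. The Arabidopsis protein stabilises blue-light-sensing LOV-kelch F-box proteins, and with them removes cycling DOF factors that hold back CONSTANS and the flowering signal FT. Its transcript is also known to rise in cold in Arabidopsis.

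RNA sequencing was done on true leaves of variety 093, which the design text calls cold-sensitive, and variety 120, which it calls cold-tolerant. Control plants stayed on a culture rack without cold, and cold-treated plants were moved to an incubator at 4 °C for 3 days, both with 12 h of light per day. Each of the 4 combinations of variety and treatment has 3 libraries, 12 in all, and the design text gives 3 pots per group with 4 seeds per pot. Cold and place cannot be told apart. The time of day of sampling is not given in the sources used here, so for genes with a daily rhythm time of day and group cannot be told apart either. Whether a group's 3 libraries are separate pots or plants is not labelled, and p-values therefore reflect only the spread among these libraries, part of which may be technical. In a bulk leaf, fewer cells that express a gene and less RNA per cell cannot be told apart.

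Levels are given in FPKM, a fragment number divided by transcript length and by the library's mapped fragments, which allows levels to be compared between genes of different length. The FPKM of a library added up to 313320 at the lowest and 350100 at the highest, with 12091 to 13357 loci at 1 FPKM or more. Counting error could not be given because read totals are unknown, and the spacing of the lowest values put relative depth between 1.0 and 1.40. The loci of the Rubisco small chain, a defining leaf protein, summed to at least 2946 FPKM in each library. The summed level of 3 Rubisco activase loci was between 12240 and 18268 FPKM in the control libraries and between 1220 and 2990 FPKM in the cold libraries. Light-harvesting words matched 24 loci, with sums between 5799 and 11644 FPKM in control and between 1448 and 1836 FPKM in cold libraries. Photosystem words matched 50 loci, with sums between 16843 and 24850 FPKM in control and between 5445 and 6848 FPKM in cold libraries. Seed and cotyledon words matched 69 loci, 26 of which reached 1 FPKM in a library, with sums between 227 and 523 FPKM. Nodule and root words matched 99 loci, 60 of which reached 1 FPKM, with sums between 697 and 1037 FPKM, and flower words matched 0 loci. The part of these differences in the results below was not tested.

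Both GI genes were at high levels in the cold in both varieties, at intermediate levels in control leaves of 093 and near the bottom of the scale in control leaves of 120. Phvul.007G083500 was the more abundant of the pair in every library.

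In 093 control libraries 1, 2 and 3, Phvul.007G083500 was at 20.3, 25 and 22.1 FPKM. In 093 cold it was at 124, 114 and 126 FPKM. In 120 control it was at 0.487, 0.206 and 0.809 FPKM, and in 120 cold at 139, 136 and 89.8 FPKM. Each cold library of either variety was thus above each control library, each 120 control library was below each 093 control library, and the cold libraries of the varieties overlapped. The group means were 22.5 ± 2.37, 121 ± 6.34, 0.501 ± 0.302 and 122 ± 27.7 FPKM in the same order (SD, n = 3 per group here and below).

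Phvul.004G088300 was at 4.33, 4.67 and 4.44 FPKM in 093 control. It was at 42.4, 42.2 and 47.2 FPKM in 093 cold. In 120 control it was at 0.0322, 0.0228 and 0.0593 FPKM, and in 120 cold at 44.5, 38.4 and 35.1 FPKM. The groups fell in the same pattern as for Phvul.007G083500, with no overlap except between the cold groups. The means were 4.48 ± 0.171 in 093 control, 43.9 ± 2.84 in 093 cold, 0.0381 ± 0.0189 in 120 control and 39.3 ± 4.78 FPKM in 120 cold. Library 2 was the lowest of the 120 control libraries for both genes, and 120 cold library 3 was the lowest of the 6 cold libraries for both genes.

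**Figure D1:**
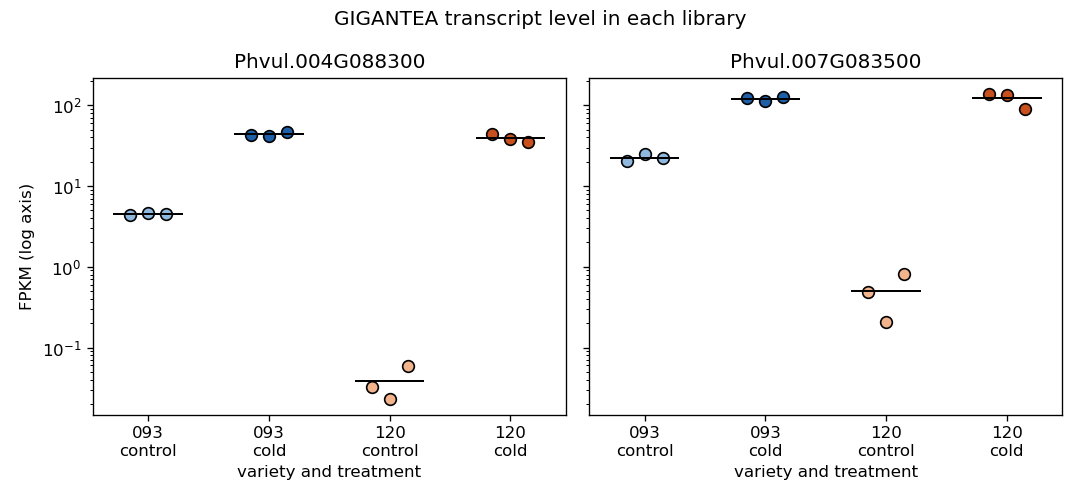
FPKM of Phvul.004G088300 (left) and Phvul.007G083500 (right) on a log axis in the 3 libraries of each group, libraries 1 to 3 from left to right, with the group mean as a line. The 120 control libraries lie lowest, below 0.1 FPKM for Phvul.004G088300 and below 1 FPKM for Phvul.007G083500, and the cold libraries of the varieties overlap.

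The position of the GI genes among all loci moved accordingly. Ranked by FPKM within a library, from the highest of 22542 loci, Phvul.007G083500 stood between 1828 and 2604 in 093 control and between 399 and 451 in 093 cold. In 120 it stood between 12789 and 15284 in control and between 321 and 624 in cold. Phvul.004G088300 stood between 7779 and 8835 in 093 control and between 1474 and 1648 in 093 cold. Its ranks in 120 were between 16794 and 17690 in control and between 1539 and 1985 in cold. In cold leaves both genes thus ranked alike in the varieties, and in control leaves they did not.

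The study's first question, as its design text sets it up, is how cold changes transcripts within each variety. In 093 both GI genes rose. The mean FPKM of Phvul.004G088300 was 9.80 times its control mean and that of Phvul.007G083500 was 5.4 times its control mean. On log2(FPKM + 1), the change of Phvul.004G088300 was 3.03 (SE 0.116, 95% interval 2.78 to 3.29, limma adjusted p = 2.2e-09). That of Phvul.007G083500 was 2.38 (SE 0.187, 95% interval 1.98 to 2.79, limma adjusted p = 3.8e-07). A call required an adjusted p below 0.05 and a log2 change of 1 or more in either direction. By this rule 48.2% of the 14716 loci tested were called in 093. Higher calls made up 33.0% of the tested loci and lower calls 15.2%, so a call of higher was common. By size of change, Phvul.004G088300 ranked 679 and Phvul.007G083500 ranked 1319 from the highest. The median change over all tested loci was 0.43, and 50.7% of the loci had each cold library above each control library.

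In 120 both GI genes rose by more. Phvul.004G088300 changed by 5.27 on log2(FPKM + 1) (SE 0.116, 95% interval 5.02 to 5.53, limma adjusted p = 6.4e-11). The change of Phvul.007G083500 was 6.35 (SE 0.187, 95% interval 5.94 to 6.76, limma adjusted p = 3.4e-10). In 120, 46.4% of the tested loci were called, 27.8% as higher and 18.6% as lower, the median change was 0.18, and 42.2% had each cold library above each control library. Phvul.007G083500 ranked 24 and Phvul.004G088300 ranked 80 from the highest of the 14716 changes. As ratios of mean FPKM, Phvul.004G088300 was 1032 times and Phvul.007G083500 243 times its control mean. These ratios rest on control values below 1 FPKM, whose counting error is unknown. Which of the pair changed more in 120 depends on the scale, since the pseudocount of 1 holds down the change of Phvul.004G088300. With a pseudocount of 0.1 the changes were 8.16 for Phvul.004G088300 and 7.77 for Phvul.007G083500.

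The difference of the responses between the varieties was tested as a contrast of its own. For Phvul.007G083500 the response in 120 exceeded that in 093 by 3.96 (SE 0.264, 95% interval 3.38 to 4.54, limma adjusted p = 3.5e-06), which ranked 28 from the highest of 14716 loci. For Phvul.004G088300 it exceeded it by 2.24 (SE 0.164, 95% interval 1.88 to 2.60, limma adjusted p = 6.5e-06), which ranked 246. In this contrast 19.6% of the loci were called, 6.50% with a higher and 13.1% with a lower response in 120, and the median was -0.23. With a pseudocount of 0.1 the differences were 5.34 for Phvul.007G083500 and 4.90 for Phvul.004G088300.

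The varieties differed in the GI genes without cold. Phvul.007G083500 was lower in 120 by a log2 change of -3.98 (SE 0.187, 95% interval -4.39 to -3.57, limma adjusted p = 6.8e-08), and its mean FPKM in 093 was 44.9 times that in 120. Phvul.004G088300 was lower in 120 by -2.40 (SE 0.116, 95% interval -2.65 to -2.15, limma adjusted p = 8.1e-08), with a mean in 093 of 118 times that in 120. Without cold 10.8% of the tested loci were called, 4.44% as lower in 120 and 6.34% as higher, and 14.7% had each 120 library below each 093 library. Phvul.007G083500 ranked 32 and Phvul.004G088300 ranked 156 from the lowest of 14716 differences. With a pseudocount of 0.1 the differences were -5.36 for Phvul.007G083500 and -5.06 for Phvul.004G088300.

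Under cold no difference between the varieties was called for either GI gene. The difference, 120 minus 093, was -0.16 for Phvul.004G088300 (95% interval -0.42 to 0.09, limma adjusted p = 0.31) and -0.02 for Phvul.007G083500 (95% interval -0.43 to 0.39, limma adjusted p = 0.95). In this comparison 12.6% of the loci were called, 5.62% as higher and 7.03% as lower in 120, with a median of -0.12. Each 120 library was above each 093 library for 19.8% of the loci and below for 33.6%, which was the case for neither GI gene. Both signs turned when libraries were scaled by median ratios, to 0.03 and 0.17. The response comparison and the comparison without cold share the control libraries, so their values are not separate evidence. In order of level, both genes thus ran from 120 control through 093 control to the cold groups, which did not differ beyond their spread.

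**Figure D2:**
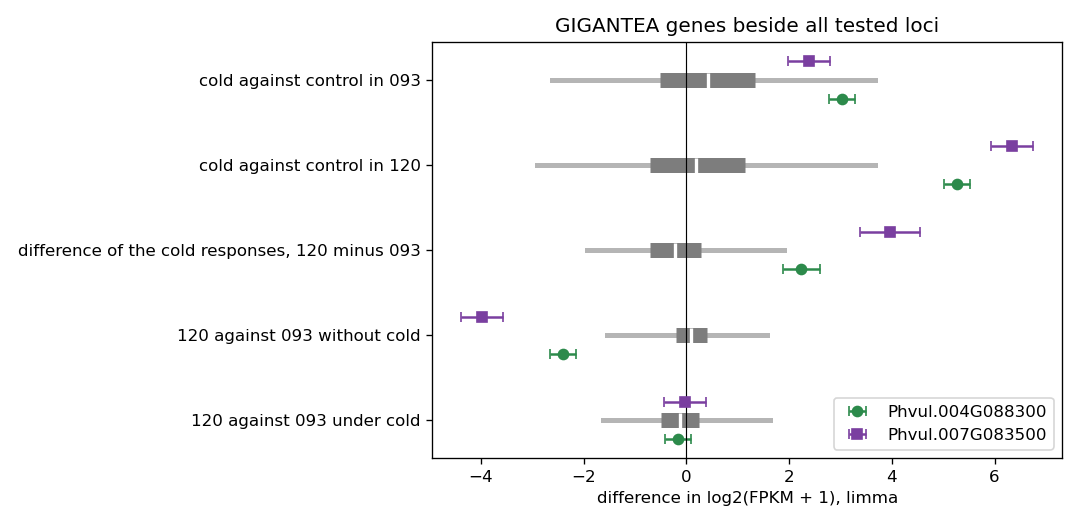
Fitted differences in log2(FPKM + 1) of the GI genes (points, with 95% intervals) in the 5 comparisons, beside all 14716 tested loci. The thick grey bar spans the 25th to 75th percentile of all loci, the thin bar the central 95% of loci and the white mark the median; the GI genes lie outside the thin bar in 120 with cold, in the difference of the responses and without cold, and at the middle under cold.

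Taken as a sum, which measures GI transcript whatever its locus, the level was 27 ± 2.55 FPKM in 093 control and 165 ± 8.43 FPKM in 093 cold. In 120 it was 0.539 ± 0.320 FPKM in control and 161 ± 31.7 FPKM in cold. The summed level in the cold was 6.13 times the control mean in 093 and 299 times in 120. On log2(sum + 1) the change was 2.57 in 093 and 6.72 in 120, higher in 6 of 6 cold libraries, with an exact two-sided permutation p of 0.1 in each variety, the smallest that 3 against 3 libraries allow. Over both varieties, with libraries rearranged within each variety, the mean change was 4.65 (exact two-sided permutation p = 0.005, the smallest possible, and 0.045 after adjustment over the 9 permutation tests of the sum and the balance).

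The shares of the pair in this sum also varied among these libraries. Phvul.007G083500 exceeded Phvul.004G088300 by 4.69, 5.36 and 4.97 times in 093 control. In 093 cold the ratio was 2.93, 2.71 and 2.66. It was 15.1, 9.05 and 13.7 in 120 control and 3.13, 3.55 and 2.56 in 120 cold. The 120 control ratios divide by levels of Phvul.004G088300 between 0.0228 and 0.0593 FPKM, whose counting error is unknown. Cold libraries had lower ratios than control libraries in both varieties, and the cold groups overlapped. Phvul.007G083500 supplied 83.3 ± 0.926% of the summed FPKM in 093 control, 73.4 ± 0.988% in 093 cold, 92.3 ± 2.01% in 120 control and 75.2 ± 3.10% in 120 cold.

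**Figure D3:**
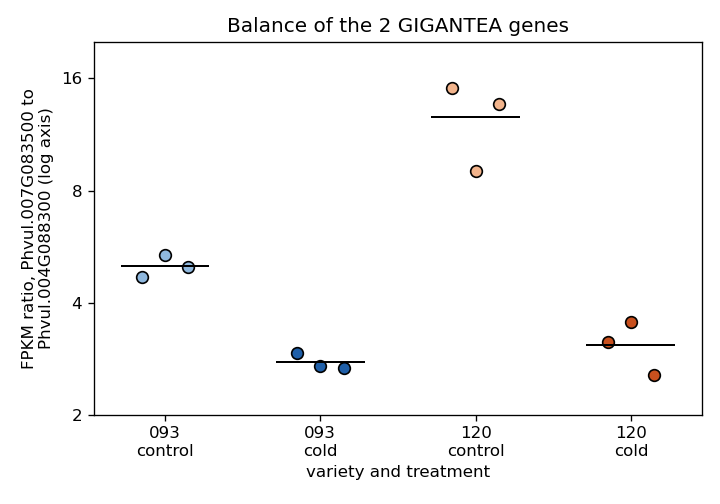
FPKM of Phvul.007G083500 divided by that of Phvul.004G088300 in each library on a log axis, with the group mean as a line. The ratio averaged 5.01 in 093 control and 2.77 in 093 cold, 12.6 in 120 control and 3.08 in 120 cold. In 120 control it divides by levels of 0.0593 FPKM or less.

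The balance of the pair, log2 of (Phvul.004G088300 + 1) over (Phvul.007G083500 + 1), moved toward Phvul.004G088300 by 0.65 with cold in 093 (exact two-sided permutation p = 0.1, the smallest possible). In 120 it moved by -1.07 with this pseudocount (exact permutation p = 0.1) and by 2.01 with none (exact permutation p = 0.1), because the 120 control values lie below 1 FPKM. Over both varieties the value was -0.21 (exact permutation p = 0.51) with the pseudocount of 1, 0.61 (exact permutation p = 0.02) with 0.1 and 1.43 with none (exact permutation p = 0.005). The setting without a pseudocount was chosen after the data were seen. Between varieties the balance differed by -0.14 under cold (exact permutation p = 0.4). Without cold it differed by 1.58 with the pseudocount and by -1.3 with none (exact permutation p = 0.1 for both). A shift in the balance with cold thus kept its direction under these settings in 093 and not in 120.

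The genes most like each GI gene were found by the Pearson correlation of log2(FPKM + 1) over the 12 libraries, among all tested loci. The libraries fall into 4 groups, so the correlations mostly compare group means, and they are given as descriptions. Phvul.007G083500 was most like Phvul.009G045000, a pseudo-response regulator 5 (r = 0.999), of the family of clock repressors that act through the day in Arabidopsis. After it came a phosphate transporter 4;1 (Phvul.006G064900, r = 0.992), an AT-hook DNA-binding protein (Phvul.008G065900, r = 0.989), a TIR-NBS-LRR protein (Phvul.004G137300, r = 0.988) and MSTRG.13565, with no description (r = 0.986). For Phvul.004G088300 the closest were a GTP-binding 2 locus (Phvul.004G060100, r = 0.994), a splicing factor (Phvul.007G066560, r = 0.990), Phvul.009G011500, with no description (r = 0.989), casein kinase alpha 1 (Phvul.002G012700, r = 0.989) and a peroxisomal 3-ketoacyl-CoA thiolase (Phvul.007G236600, r = 0.987). The pair correlated with each other at r = 0.981, which put Phvul.004G088300 at rank 9 for Phvul.007G083500 and Phvul.007G083500 at rank 17 for Phvul.004G088300.

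Within groups the likeness was looser. By deviations from the group means over the same 12 libraries, the GI genes correlated at r = 0.691, at ranks 717 and 297 of the other's list. The closest loci by this measure were Phvul.009G198200, a protein of unknown function (r = 0.981), and catalase 2 (Phvul.001G001000, r = 0.964) for Phvul.007G083500. They were a locus of unknown function (Phvul.011G066900, r = 0.955) and WRKY DNA-binding protein 55 (Phvul.009G043200, r = 0.954) for Phvul.004G088300. None of these was among the 5 closest loci by level. WRKY DNA-binding protein 55 was at 0 FPKM in each control library and between 0.775 and 2.77 FPKM in the cold libraries. Phvul.011G066900 was at 0.0743 FPKM or less in the control libraries. The correlations of these loci with Phvul.004G088300 thus rest wholly or nearly so on the cold libraries. Catalase 2 fell with cold (log2 change -2.07 in 093 and -2.55 in 120), where the GI genes rose.

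Casein kinase alpha 1, the catalytic subunit of a kinase that acts on clock proteins in Arabidopsis, had the group order of Phvul.004G088300 in control leaves and a smaller range. Its level was 19.9 ± 1.47 FPKM in 093 control, 40.4 ± 1.08 in 093 cold, 11.2 ± 1.92 in 120 control and 40.2 ± 2.44 FPKM in 120 cold. In 120 it rose by 1.76 (SE 0.124, limma adjusted p = 1.7e-07), against 5.27 for Phvul.004G088300. Its change in 093 (0.99), the difference of its responses (0.78) and its difference without cold (-0.78) were under the size needed for a call, whereas all of these were called for Phvul.004G088300.

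Phvul.009G045000 followed Phvul.007G083500 in level as well as in order. It was at 15.5, 25.5 and 17.8 FPKM in 093 control and at 110, 101 and 108 FPKM in 093 cold. In 120 it was at 0.145, 0.0463 and 0.441 FPKM in control and at 108, 132 and 73.5 FPKM in cold. It had its lowest 120 control value in library 2 and its lowest 120 cold value in library 3, as both GI genes did. Its changes with cold were 2.41 in 093 and 6.42 in 120, against 2.38 and 6.35 for Phvul.007G083500.

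The other clock and photoperiod genes were counted in lists by words in their descriptions or by annotation. Of 7 pseudo-response regulator loci, all tested, 4 rose with cold in 093 and 1 fell, beside 33.0% and 15.2% of all tested loci. In 120, 5 of them rose and 0 fell, beside 27.8% and 18.6%. The median change of the 7 loci was 1.3 in 093 and 2.11 in 120, beside 0.43 and 0.18 for all tested loci. With median-ratio or quantile scaling 3 rose and 1 fell in 093, and 4 to 5 rose in 120. The pseudo-response regulator 7 locus Phvul.007G162500 shared the low control level of the GI genes in 120. It was named after its values were seen. Its mean was 32.4 ± 2.52 FPKM in 093 control and 42.2 ± 2.29 in 093 cold, a change of 0.37 that was not called (limma adjusted p = 0.35) and turned to -0.15 with median-ratio scaling. It rose in 120 from 3.81 ± 2.51 to 47.1 ± 8.10 FPKM (log2 change 3.49, SE 0.351, limma adjusted p = 3.2e-06).

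MSTRG.12776, a locus with the names of a pseudo-response regulator 7 and a pseudo-response regulator 3 gene, differed from the GI genes in 093. There it fell from 31.4 ± 8.33 to 13.9 ± 0.838 FPKM (log2 change -1.09, SE 0.391, limma adjusted p = 0.025). This call was lost without 093 control library 1 (-1.03) or 2 (-0.93), without 093 cold library 2 (-1.04) or 3 (-1.11), with a pseudocount of 0.1 (-1.14, limma adjusted p = 0.13), and when libraries were rescaled to equal sums (-1.19, limma adjusted p = 0.061). In 120 it rose from 2.00 ± 1.54 to 20.8 ± 6.59 FPKM (log2 change 2.98, SE 0.391, limma adjusted p = 2.8e-05). Without cold it was lower in 120 than in 093 by -3.57 (limma adjusted p = 5.3e-05), Phvul.007G162500 by -2.97 and Phvul.009G045000 by -4.07, against -3.98 for Phvul.007G083500. These were the only ones called of the 7 pseudo-response regulator loci, 3 lower and 0 higher, beside 4.44% and 6.34% of all tested loci. Of the uncalled loci, Phvul.009G258300 was lower in 120 (-0.67). Phvul.009G185500 (0.68), Phvul.003G188400 (0.33) and MSTRG.12046 (0.09), chosen after their values were seen, were higher.

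Dawn-expressed MYB-like factors were matched by no description word. The KEGG orthology entry for LHY, a repressor of GI in Arabidopsis, was used after the values were seen and covers 11 tested loci. In 093, 4 of them rose and 4 fell, beside 33.0% and 15.2% of all tested loci. In 120 the counts were 1 and 5, beside 27.8% and 18.6%. With median-ratio or quantile scaling the counts were 3 and 4 in 093 and 1 and 6 in 120. The entry's loci thus did not move together. Of its 3 called loci with the largest changes, MSTRG.11453 and Phvul.010G120401 fell where the GI genes rose, and Phvul.004G107600 rose as they did. MSTRG.11453 fell from 161 ± 39.1 to 22.2 ± 1.42 FPKM in 093 (log2 change -2.77) and from 302 ± 71.9 to 20.6 ± 2.99 FPKM in 120 (log2 change -3.79). Phvul.010G120401 fell from 150 ± 33.5 to 15.1 ± 1.43 FPKM in 093 (log2 change -3.20) and from 242 ± 40.8 to 14.9 ± 1.95 FPKM in 120 (log2 change -3.92). The highest limma adjusted p of these 4 changes was 3.6e-07. Phvul.004G107600 rose from 15.5 ± 1.89 to 62.3 ± 1.75 FPKM in 093 (log2 change 1.94, limma adjusted p = 6.4e-08) and from 13.5 ± 1.76 to 43.7 ± 1.72 FPKM in 120 (log2 change 1.64, limma adjusted p = 2.5e-07). Without cold the means of the falling loci were higher in 120, by 0.91 for MSTRG.11453 (limma adjusted p = 0.0091) and 0.70 for Phvul.010G120401 (limma adjusted p = 0.016), which is under the size needed for a call. The former difference was called without 093 control library 1 (1.03) or 3 (1.01) or 120 control library 2 (1.12). Of the entry's 11 tested loci, 4 were called higher and 0 lower in 120 without cold, beside 6.34% and 4.44% of all tested loci. Library 2 had the lowest level of both falling loci in the control groups of both varieties.

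**Figure D4:**
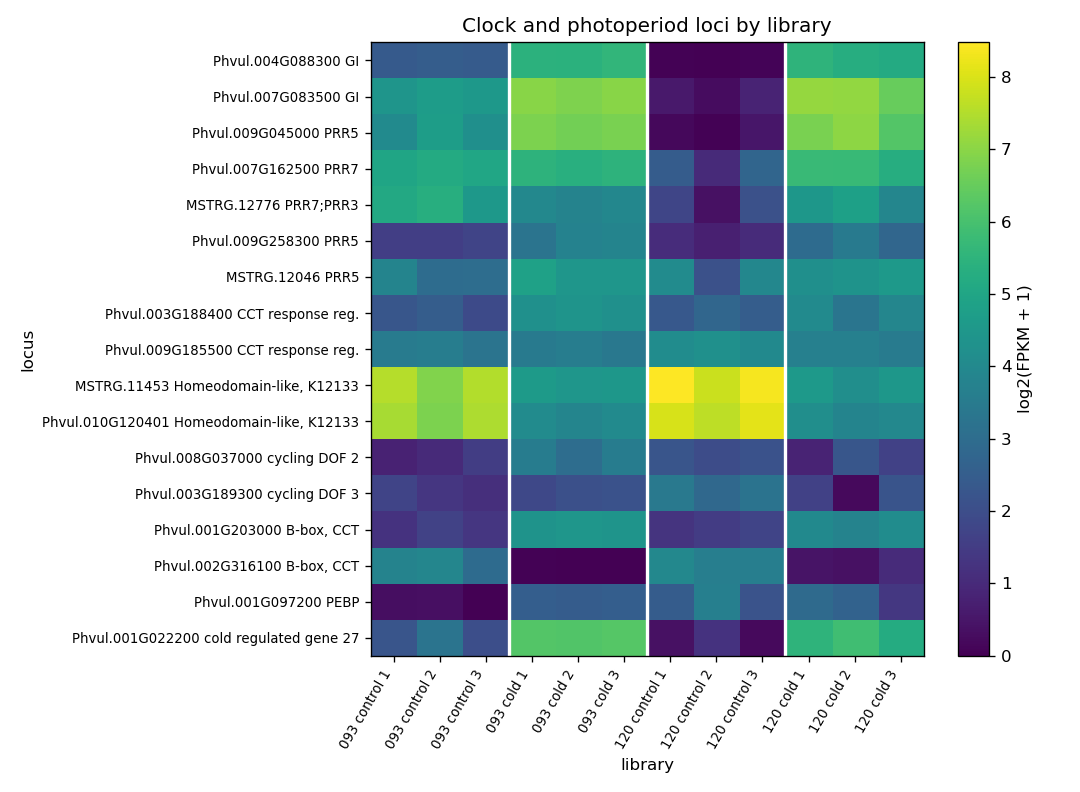
Level, as log2(FPKM + 1), of the GI genes and 15 other clock and photoperiod loci (rows) in each of the 12 libraries (columns, with white lines between groups). The GI genes and Phvul.009G045000 are darkest in the 3 control libraries of 120, where MSTRG.11453 and Phvul.010G120401 are brightest. Of the 11 tested loci of the KEGG orthology entry for LHY, only these falling loci are drawn. Phvul.004G107600, which rose with cold in both varieties, is not drawn.

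Genes of the evening complex and genes that act with or after GI in Arabidopsis were also sought by description words. Loci described otherwise would be missed, and several of these lists had no tested member. The LOV-kelch F-box list held 1 locus and the evening complex list 2 loci, and 0 of either passed the filter on low values. Words for LNK factors matched 0 loci. Of 5 tested cycling DOF factors, 1 was called higher in 093 and 1 lower in 120, with 0 calls the other way, and the other scalings added 1 lower in 093. Cycling DOF factor 2 (Phvul.008G037000) rose in 093 from 1.24 ± 0.620 to 9.55 ± 2.07 FPKM (log2 change 2.25), and cycling DOF factor 3 (Phvul.003G189300) fell in 120 from 8.20 ± 1.81 to 1.97 ± 1.73 FPKM (log2 change -1.83). Of 9 tested CONSTANS and CONSTANS-like loci, 3 rose and 1 fell in 093, where 33.0% of all tested loci were called higher and 15.2% lower. In 120, 1 rose and 3 fell, beside 27.8% and 18.6% of all tested loci. With median-ratio or quantile scaling the counts were 2 and 2 in 093 and 1 and 4 in 120. Of 8 FT-like loci 3 were tested, and of these 3 rose in 093 and 1 in 120, beside 33.0% and 27.8% of all tested loci. Phvul.004G119700 and Phvul.010G073500 reached 1 FPKM in cold libraries only. They thus passed the filter through the cold libraries alone, and these counts cannot show a rise of the list. The FT-like locus Phvul.001G097200 rose in 093 from 0.175 ± 0.152 to 4.70 ± 0.188 FPKM (log2 change 2.28), while its means in 120 were 6.53 ± 4.37 in control and 4.49 ± 2.60 FPKM in cold.

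Cold regulated gene 27 (Phvul.001G022200), a night-acting clock component that responds to cold in Arabidopsis, had the group order of the GI genes. It rose from 5.17 ± 3.07 to 72.5 ± 1.79 FPKM in 093 (log2 change 3.68) and from 0.616 ± 0.676 to 46.3 ± 11 FPKM in 120 (log2 change 4.92). Without cold it was lower in 120 by -1.90 (limma adjusted p = 0.0014). Unlike those of the GI genes, the difference of its responses (1.24, limma adjusted p = 0.064) was not called. In its list of COP1, HOS1 and cold-clock words, 3 of 6 tested loci were higher and 2 lower in 093, against 2 and 3 in 120. With the other scalings 1 to 2 were higher and 3 lower in 093. Words for red and blue light receptors matched 13 loci, all tested. In 093, 3 fell and 0 rose, and in 120, 9 fell and 1 rose, beside 15.2% and 18.6% of all tested loci called lower. The matches are not all receptors. They include cryptochrome-interacting basic-helix-loop-helix 1 (Phvul.009G023500), which fell in both varieties (log2 change -3.89 in 093 and -5.05 in 120). With median-ratio or quantile scaling 8 of the 13 fell in 093 and 9 to 10 in 120, so the gap between the varieties in this count depends on the scaling. Of 5 tested phytochrome-interacting factors, 1 was higher and 2 lower in 093, against 2 and 2 in 120, and with the other scalings 0 and 3 in 093 and 1 and 2 in 120. Of all tested loci, 33.0% were called higher in 093 and 27.8% in 120. None of the small counts in these lists is read as a difference between the varieties.

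The wider annotations held loci that rose and loci that fell, as did the tested loci as a whole. Of all tested loci, 33.0% were called higher and 15.2% lower in 093, and 27.8% and 18.6% in 120. Of 117 tested loci in the KEGG pathway of the plant circadian rhythm, other than the GI genes, 36 were called higher and 20 lower in 093, with 31 and 27 in 120. Their median changes were 0.37 and 0.04, close to those of all tested loci. With median-ratio or quantile scaling between 25 and 26 rose and between 27 and 28 fell in 093. Of 50 tested loci with the GO term circadian rhythm, 14 were higher and 11 lower in 093, with 12 and 15 in 120. Of 51 with the GO term photoperiodism, 15 were higher and 10 lower in 093, with 11 and 10 in 120. With the same scalings the circadian rhythm term had 12 loci that rose and 15 that fell in 093, and the photoperiodism term 6 and 15. In 120 they gave 9 to 10 and 19 for the former and 7 to 8 and 11 for the latter.

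**Figure D5:**
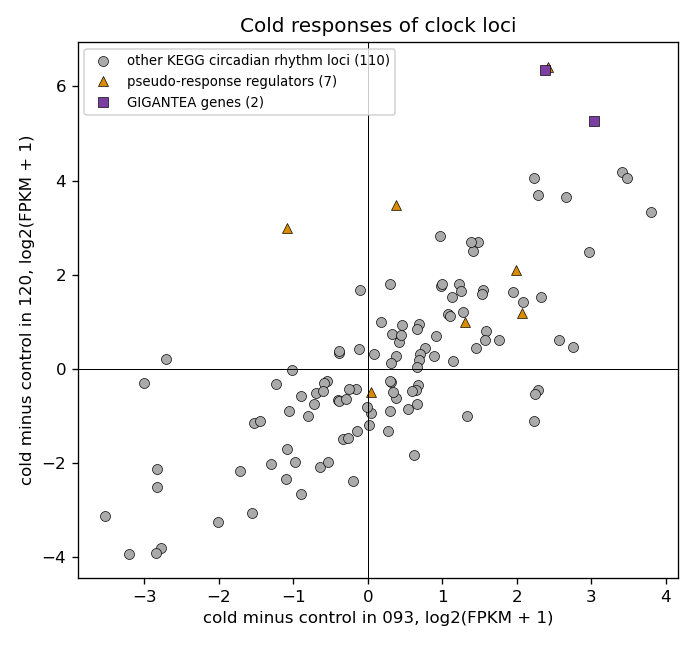
Change with cold in log2(FPKM + 1) in 093 (horizontal) and in 120 (vertical) of the GI genes, 7 pseudo-response regulators and 110 other tested loci of the KEGG circadian rhythm pathway. The GI genes stand at 2.38 and 6.35 (Phvul.007G083500) and at 3.03 and 5.27 (Phvul.004G088300), and Phvul.009G045000 lies over Phvul.007G083500.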

How the data were processed

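The deposited values are FPKM that the authors computed, and the file headers give each library 1 column of them. Per the labels' protocols, RNA was extracted with Trizol, poly(A)-selected and made into dUTP-stranded libraries that were sequenced as read pairs. Per the submitters' processing notes, StringTie 1.3.4d, HISAT2 2.0.4 and cutadapt 1.9 were used. The genome build, and how transcripts were combined into a locus value, are not given in the sources used here. Assembled transcripts count toward a locus, and FPKM depend on the length assigned to it.

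A locus was tested if 3 or more of the 12 libraries reached 1 FPKM (14716 loci, both GI genes included). Group means of log2(FPKM + 1) were fitted over all 12 libraries by limma 3.58.1 (R 4.3.3), with the variance allowed to follow the level, in a script tested on simulated data. P-values are two-sided, adjusted by the Benjamini-Hochberg method over all tested loci within each of 5 contrasts. Fold changes on this scale understate changes of low loci. The sum and the balance of the pair were compared by exact permutation tests over libraries (20 arrangements in a variety or treatment, 400 over both). Rose and fell refer to calls.

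The members, lists and tests were chosen with earlier results of these data known. Eligible for naming were both GI genes, in each list every member where 4 or fewer were tested and otherwise the 3 called ones of largest average absolute change, and the 5 loci most like each GI gene. Loci outside this rule are said to have been chosen after their values were seen. Alternatives covered the pseudocount, filter, scaling, samples in the fit, variance trend, replicate number and leaving out each library.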

Additional observations from a re-analysis of the deposited data

Results flagged for a closer look

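The cold response differed between the varieties, by the test of the difference itself (limma, 120 minus 093, log2), for both GI genes. The difference was 2.24 for Phvul.004G088300 (SE 0.164, adjusted p = 6.5e-06) and 3.96 for Phvul.007G083500 (SE 0.264, adjusted p = 3.5e-06), with higher values in the cold in 3 of 3 libraries of each variety.

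Of the other loci named, the response in 120 was also higher for Phvul.009G045000 by 4.00 (SE 0.317, adjusted p = 1.2e-05), for MSTRG.12776 by 4.07 (SE 0.552, adjusted p = 0.00037) and for Phvul.007G162500 by 3.11 (SE 0.496, adjusted p = 0.00093). Among the loci most like a GI gene it was higher for Phvul.011G066900 by 2.36 (SE 0.209, adjusted p = 2.7e-05), for Phvul.006G064900 by 1.45 (SE 0.192, adjusted p = 0.00032) and for Phvul.004G137300 by 1.36 (SE 0.189, adjusted p = 0.00042). It was lower for MSTRG.11453 (-1.02, SE 0.305, adjusted p = 0.025), Phvul.008G037000 (-2.79, SE 0.451, adjusted p = 0.0010), Phvul.003G189300 (-2.45, SE 0.564, adjusted p = 0.0073) and Phvul.001G097200 (-2.73, SE 0.584, adjusted p = 0.0049). Phvul.009G045000, Phvul.006G064900 and Phvul.004G137300 were picked for their likeness to Phvul.007G083500 over these same libraries, so their differences are not separate evidence. Unlike the GI genes, Phvul.011G066900 differed between the varieties in the cold, at 1.74 FPKM in 093 and 13.1 in 120. Its control means were 0.0445 FPKM in 093 and 0.0352 in 120.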

How the results depend on the processing

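The calls of both GI genes with cold in 093, with cold in 120, in the difference of the responses and without cold kept their direction and their side of the threshold under each alternative run. Their log2 changes with cold in 093 ranged from 2.54 to 3.26 for Phvul.004G088300 and from 1.85 to 2.43 for Phvul.007G083500. The numbers of called loci stayed within 1.5 times, between 6733 and 8250 with cold in 093. The median-ratio scaling brought the median change of all tested loci in 093 from 0.43 to 0.0051, and called 3347 loci higher and 3386 lower against 4857 and 2239, and in 120 it called 3572 higher and 3188 lower against 4092 and 2733. In the difference of the responses it called 1424 and 1162 against 956 and 1930, without cold 784 and 799 against 933 and 653, and under cold 1014 and 715 against 827 and 1034.

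Differences that reversed were small or rest on values below the pseudocount. Under cold, that of Phvul.004G088300 was 0.030 with median-ratio scaling. That of Phvul.007G083500 was 0.17 with median-ratio scaling, 0.041 with quantile normalization and 0.023 when libraries were rescaled to equal sums, and between -0.13 and 0.18 with 1 library left out. Phvul.007G162500 in 093 came to -0.15 with median-ratio and -0.15 with quantile scaling. The balance with cold in 120 was 0.39 with a pseudocount of 0.1 and 2.01 with none. Over both varieties it was 0.61 and 1.43. Between varieties it was -1.3 without cold and -0.72 over both treatments with no pseudocount.

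Replicate numbers showed no sign of pairing the libraries. The correlations of deviations between same-numbered control and cold libraries ran from -0.0800 to 0.0490. Those between unlike-numbered libraries ran from -0.0996 to 0.123. What a number marks is not labelled, and with 3 libraries per group this check cannot settle it. With the replicate number as a block, 7098 loci were called with cold in 093 and 6821 in 120, and no GI call changed (adjusted p = 8.6e-08 for Phvul.004G088300 and 5.2e-06 for Phvul.007G083500 in 093). The planned search of promoters for motifs was not run, since promoter sequences were not used here. Read depth is unknown, so levels below 1 FPKM in 120 control have no counting interval.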
